A study of Mus musculus with 12 samples.

Results

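The 10 genes described here store or oxidise iron, bind zinc and copper, or carry iron, zinc and related metals across membranes: Ftl1, Fth1, Tfrc, Slc40a1, Slc11a2, Mt1, Mt2, Slc30a1, Slc39a14 and Cp. They were chosen by gene symbol, and all 10 were found among the 25511 genes of the deposited table. All 10 also passed the filter on low counts, with between 105 fragments (Slc40a1) and 90960 fragments (Fth1) in a library. The cells were osteoblast-like cells freed by collagenase from the skulls of newborn C57Bl/6J mice, so each culture was a primary isolate and not a line. Mice were wild type (WT) or lacked protease-activated receptor 2 (labelled F2rl1 -/-, here KO). After 48 h in culture the cells were kept for 4 days in BRFF-HPC1 medium with 20% fetal calf serum, either unconditioned or first held for 48 h on MDA-PCa-2b cells, a human line from a bone metastasis of prostate cancer. The question was how osteogenic cells with and without the receptor answer to tumour cell products.

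The deposited tables held 3 libraries in each of the 4 groups, numbered 0 to 2. Unconditioned WT libraries 0 and 1 differed by less than the sampling noise and were counted as 1 sample, named library 0 below, which left 11 distinct libraries of 15023994 to 16956754 fragments. One unconditioned library was titled WT but carried the genotype label F2rl1 -/-, and the library numbers of the tables were not tied to titles. F2rl1 itself had 14 to 25 fragments in the WT libraries and 12 to 46 in the libraries labelled KO. Those are fragments of the whole gene, so they do not check the deletion, and KO below names the label. Nothing in the labels says whether the libraries of a group came from separate litters or cultures, so the p-values measure the spread between these libraries, which may be technical.

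Iron in excess of need is stored inside ferritin, a shell built from a light chain (Ftl1) and a heavy chain (Fth1), of which the heavy chain oxidises iron. Transferrin-bound iron enters through the transferrin receptor (Tfrc), leaves the endosome through Slc11a2 (DMT1), and iron not bound to transferrin can enter through Slc39a14 (ZIP14). Ferroportin (Slc40a1) exports iron and ceruloplasmin (Cp), a copper-containing ferroxidase, oxidises it for loading onto transferrin. The metallothioneins Mt1 and Mt2 bind zinc and copper, Slc30a1 (ZnT1) exports zinc, and all 3 are known targets of the zinc-sensing factor MTF1.

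Several of these messages carry iron-responsive elements, hairpins bound by iron regulatory proteins when iron is scarce. Bound at the 5′ end, as in the ferritin and ferroportin messages, they block translation, and bound at the 3′ end, as in Tfrc, they protect the message from decay. They are shown because they separate the members whose RNA level is known to be set through such an element from those controlled mainly in translation. A hairpin was searched as C, 5 stem bases, the loop CAGTGN and 5 further stem bases, with at least 4 of the 5 stem positions paired (G with U allowed). Among protein-coding transcripts of the reference, 7.75% held such a match anywhere, coding sequence included, so a match is a description and not a site. That share thus covers more sequence than the untranslated regions read below. In the untranslated regions of the members, Ftl1, Fth1 and Slc40a1 held 1 match each at the 5′ end, Tfrc held 4 at the 3′ end and Slc11a2 held 1 at the 3′ end. The stretches, from the GENCODE transcripts of GRCm38, lie at chr7:45459779-45459807 on the minus strand for Ftl1, chr19:9982732-9982760 on the plus strand for Fth1, chr1:45925465-45925493 on the minus strand for Slc40a1 and chr15:100395153-100395181 on the minus strand for Slc11a2. The 4 Tfrc stretches lie on the plus strand at chr16:32631219-32631247, chr16:32631598-32631626, chr16:32631663-32631691 and chr16:32631710-32631738. They are written as DNA, 5′ to 3′, with the loop in capitals.
Ftl1: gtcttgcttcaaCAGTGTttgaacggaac
Fth1: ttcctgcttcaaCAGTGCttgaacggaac
Slc40a1: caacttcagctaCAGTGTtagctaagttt
Slc11a2: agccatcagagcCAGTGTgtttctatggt
Tfrc site 1: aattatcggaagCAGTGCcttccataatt
Tfrc site 2: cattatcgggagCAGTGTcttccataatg
Tfrc site 3: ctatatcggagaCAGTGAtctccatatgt
Tfrc site 4: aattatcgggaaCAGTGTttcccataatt
The stem was paired at all 5 positions in every stretch except that of Slc11a2, where 4 of 5 paired.

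MTF1 acts through metal response elements, here searched on both strands as TGCACNC or TGCGCNC. RefSeq promoter windows (GRCm38.p6, 250 bases before to 50 after a start) were at hand for 7 of the 10 genes, 10 windows in all, and 25.7% of the 32851 windows of all genes held the element. Mt2 held 4 matches and Mt1 held 3, numbers reached or passed by 0.517% and 1.97% of all windows. Slc30a1 held 2, and 1 of the windows of Tfrc held 2 that overlap each other. The windows of Ftl1, Fth1 and Cp held none of these letters. The antioxidant response element searched as TGACNNNGC was found once each in Mt2 and Slc30a1, not overlapping the former matches, and in 12.4% of all windows. The 250 bases before the start are given for the metallothioneins and the zinc exporter, whose values in the conditioned KO libraries are described below, at chr8:94178839-94179088 for Mt1, chr8:94172368-94172617 for Mt2 and chr1:191906531-191906780 for Slc30a1, all on the plus strand, with the metal response elements on either strand in capitals.
Mt1: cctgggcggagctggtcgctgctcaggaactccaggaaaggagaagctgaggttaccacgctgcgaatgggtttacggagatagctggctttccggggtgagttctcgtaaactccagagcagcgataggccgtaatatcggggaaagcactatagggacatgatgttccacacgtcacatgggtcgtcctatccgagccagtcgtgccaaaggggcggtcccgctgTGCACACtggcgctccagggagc
Mt2: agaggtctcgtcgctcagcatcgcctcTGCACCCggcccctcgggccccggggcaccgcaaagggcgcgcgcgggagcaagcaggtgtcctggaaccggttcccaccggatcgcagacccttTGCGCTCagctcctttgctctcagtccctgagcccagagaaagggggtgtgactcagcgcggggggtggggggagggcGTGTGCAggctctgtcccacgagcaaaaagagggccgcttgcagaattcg
Slc30a1: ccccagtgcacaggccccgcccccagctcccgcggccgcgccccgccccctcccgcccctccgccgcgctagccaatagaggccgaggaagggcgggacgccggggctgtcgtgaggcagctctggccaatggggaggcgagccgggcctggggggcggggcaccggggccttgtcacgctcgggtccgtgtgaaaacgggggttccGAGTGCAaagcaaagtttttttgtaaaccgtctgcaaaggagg
In these stretches the element lay at -23 to -17 in Mt1, at -223 to -217, -128 to -122 and -50 to -44 in Mt2, and at -43 to -37 in Slc30a1. Positions count from the RefSeq start that each window uses. GENCODE transcripts of Mt1 also begin further downstream, so its positions and its number of matches hold for its window's start alone. The RefSeq gene intervals of Mt1 and Slc30a1 begin upstream of these starts, at chr8:94178883 and chr1:191906697. Both points lie inside the stretches shown and before the marked elements, which thus fall within the gene intervals. The remaining matches lay in the 50 bases after the window starts, which are not shown.

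Levels per length differed widely between the genes. In unconditioned WT cells the levels in FPKM, fragments scaled to transcript length and library size, were 5709 ± 236 (SD, n = 2) for Fth1 and 1039 ± 15 for Ftl1. Mt2 followed at 981 ± 94.5 and Mt1 at 783 ± 5.34, and Ftl1 and Mt2 did not differ beyond the spread of Mt2. Slc39a14 stood at 121 ± 8.67, Tfrc at 24.6 ± 2.32 and Slc11a2 at 16.4 ± 0.0538. The lowest were Cp at 5.96 ± 0.866, Slc30a1 at 3.32 ± 0.292 and ferroportin, Slc40a1, at 2.24 ± 0.0360. In these cells ferritin heavy chain was thus the most abundant of the 10 messages and the iron exporter the scarcest. The lower end of the order differed between groups: Cp (3.20 FPKM) lay below Slc40a1 (3.73 FPKM) in conditioned WT cells, and Slc30a1 (3.12 FPKM) lay below Slc40a1 (3.35 FPKM) in unconditioned KO cells.

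**Figure D1:**
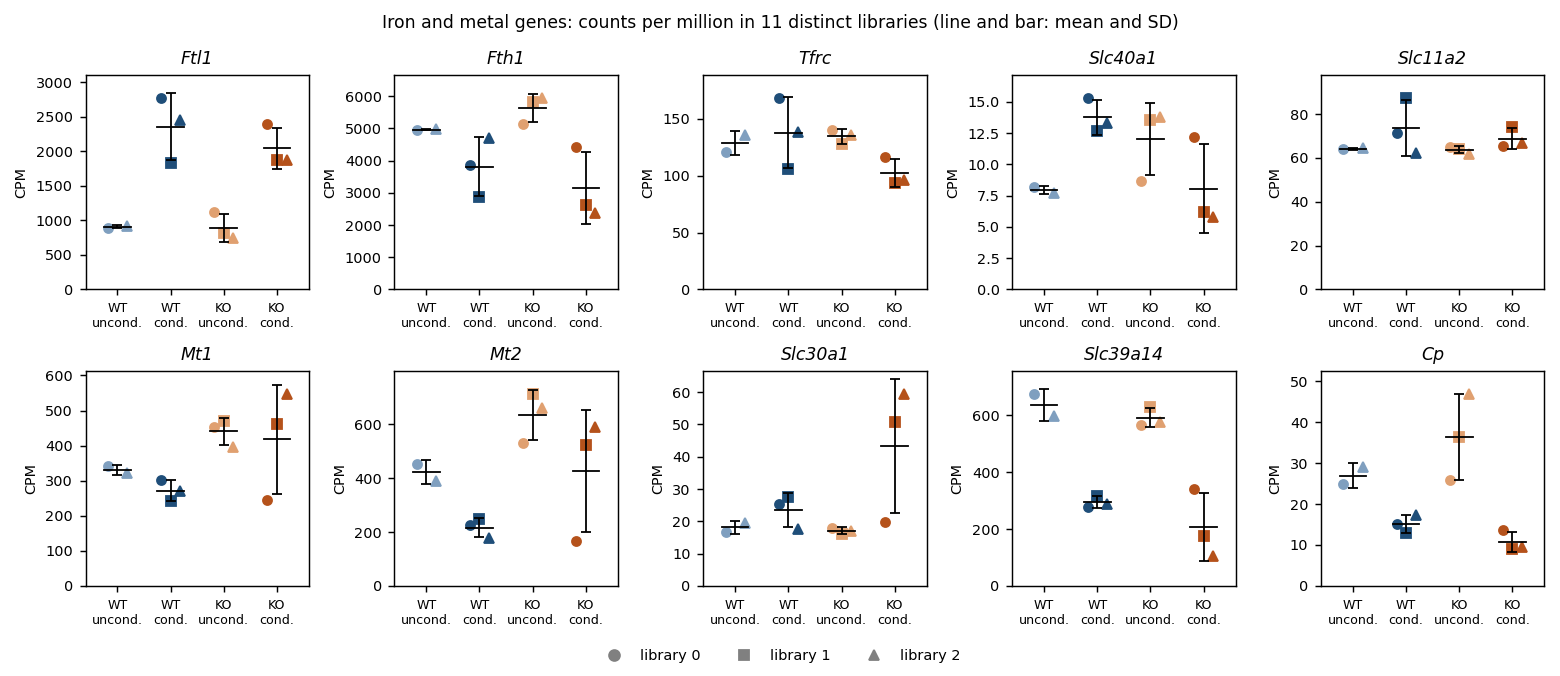
Levels in CPM, fragments scaled to library size (y axis, starting at 0), of the 10 genes in the 11 distinct libraries by group (x axis); points are libraries, with the shape giving the library number, and lines and bars are the mean and SD. Ftl1 was higher and Slc39a14 and Cp were lower in every conditioned library than in any unconditioned library of the same genotype, and the conditioned KO library 0 lay apart from libraries 1 and 2 for Mt1, Mt2, Slc30a1, Slc39a14 and Slc40a1.

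Conditioned medium was followed by more ferritin light chain RNA and by less RNA of Slc39a14, through which iron not bound to transferrin can enter, and of the ferroxidase Cp. Averaged over both genotypes, 4 of the 10 genes passed an adjusted p of 0.05 by edgeR's quasi-likelihood test with Benjamini-Hochberg adjustment over all 15197 genes tested. Ftl1 and Slc30a1 rose and Slc39a14 and Cp fell. Of all genes tested, 18.9% passed in that comparison, 9.54% upward and 9.36% downward. In WT cells 1 gene passed, Ftl1 upward, against 1.6% of all genes (1.09% upward and 0.507% downward). In KO cells the same 4 genes passed in the same directions, against 16.7% of all genes (8.8% upward and 7.94% downward). The median change of the 10 genes was -0.10 in WT and -0.48 in KO on the log2 scale, beside 0.01 in both over all genes.

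**Figure D2:**
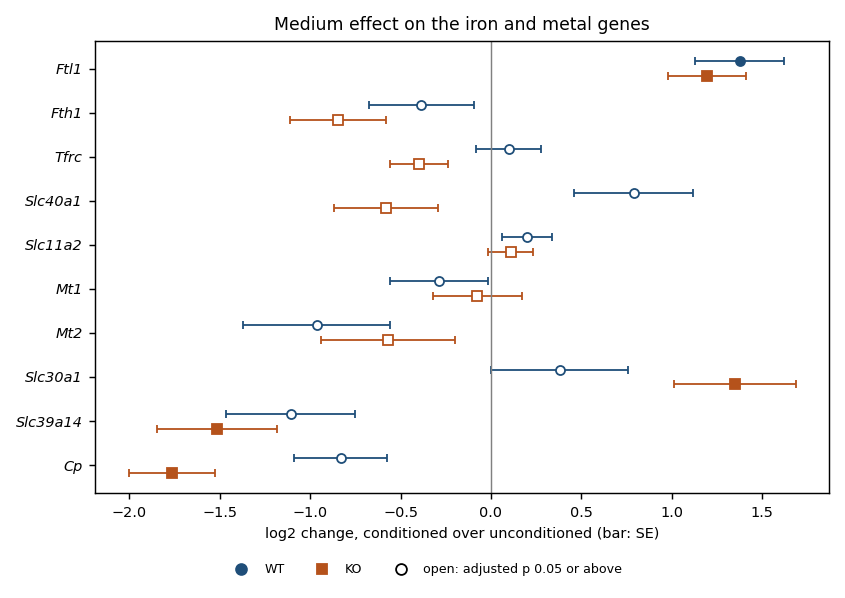
Log2 change in conditioned over unconditioned medium (x axis) for each gene (y axis) in WT (circles) and KO (squares), with bars for the SE; filled symbols passed an adjusted p of 0.05. Ftl1 lay above 1 in both genotypes, Slc39a14 lay below -1 in both, and the signs of Slc40a1 and Tfrc differed between the genotypes without passing the test.

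Of the ferritin chains, Ftl1 (chr7:45457944-45459886) stood at 895 and 922 CPM (fragments scaled to library size) in unconditioned WT cells and at 2778, 1834 and 2460 CPM in conditioned WT cells. In KO cells it stood at 1122, 812 and 744 CPM without and at 2389, 1868 and 1879 CPM with conditioning. Every conditioned library lay above every unconditioned one. Ftl1 rose by 1.38 (SE 0.25, adjusted p = 0.0317) on the log2 scale in WT and by 1.20 (SE 0.21, adjusted p = 0.00990) in KO, and by 1.29 (SE 0.16, adjusted p = 0.00131) on average. The average kept its call in each of the 11 fits without 1 library. The WT call was kept in 5 of these 11 fits. It was lost without unconditioned WT library 0 (adjusted p = 0.215) or 2 (adjusted p = 0.323), without conditioned WT library 0 (adjusted p = 0.128), and without unconditioned KO library 1 (adjusted p = 0.0672) or 2 (adjusted p = 0.0504) or conditioned KO library 1 (adjusted p = 0.0598). It was also lost by limma on log2 FPKM (adjusted p = 0.0536 and 0.0546 at the pseudocounts 1 and 0.1). The KO call was lost narrowly, at adjusted p values of 0.0537 and 0.0504, without unconditioned KO library 1 or 2. The change did not differ detectably between the genotypes (difference -0.18, SE 0.32, adjusted p = 0.899).

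Fth1 (chr19:9980600-9985111), the heavy chain, stood at 4947 and 4984 CPM in unconditioned and at 3864, 2858 and 4687 CPM in conditioned WT cells. The KO libraries stood at 5150, 5819 and 5957 CPM without and at 4418, 2614 and 2385 CPM with conditioning. The conditioned libraries lay below the unconditioned ones in each genotype, though the change missed the threshold, at -0.38 in WT (SE 0.29, adjusted p = 0.629) and -0.85 in KO (SE 0.27, adjusted p = 0.0538). Without the conditioned KO library 0 the KO change was -1.17 (SE 0.21, adjusted p = 0.00208) and passed, in a fit where 42.8% of all genes passed in KO. Averaged over the genotypes the change of Fth1 was -0.62 (SE 0.20, adjusted p = 0.0536). Other settings were divided. Apart from the fits without 1 library, 5 of 9 settings called the KO value, with adjusted p values of up to 0.137. For the average, 5 of 8 did, with adjusted p values of up to 0.0803. Among those that passed were DESeq2 (adjusted p = 0.00770 in KO and 0.00881 on average) and limma on log2 FPKM with a pseudocount of 1 (adjusted p = 0.0440 and 0.0406). So did edgeR on all 12 deposited libraries (adjusted p = 0.0336 and 0.0246), in which the repeated WT library was not merged.

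The ratio of Ftl1 to Fth1, both in FPKM, was 0.186 and 0.179 in unconditioned WT libraries and 0.798, 0.620 and 0.507 in conditioned ones. In KO libraries it was 0.239, 0.135 and 0.121 without and 0.594, 0.690 and 0.761 with conditioning. All 6 conditioned libraries lay above all 5 unconditioned ones. The ratio was chosen after its values were seen and carries no test. Both chains have processed pseudogenes in the mouse genome that resemble the message, so part of their fragments could have been placed elsewhere or taken from such copies.

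**Figure D3:**
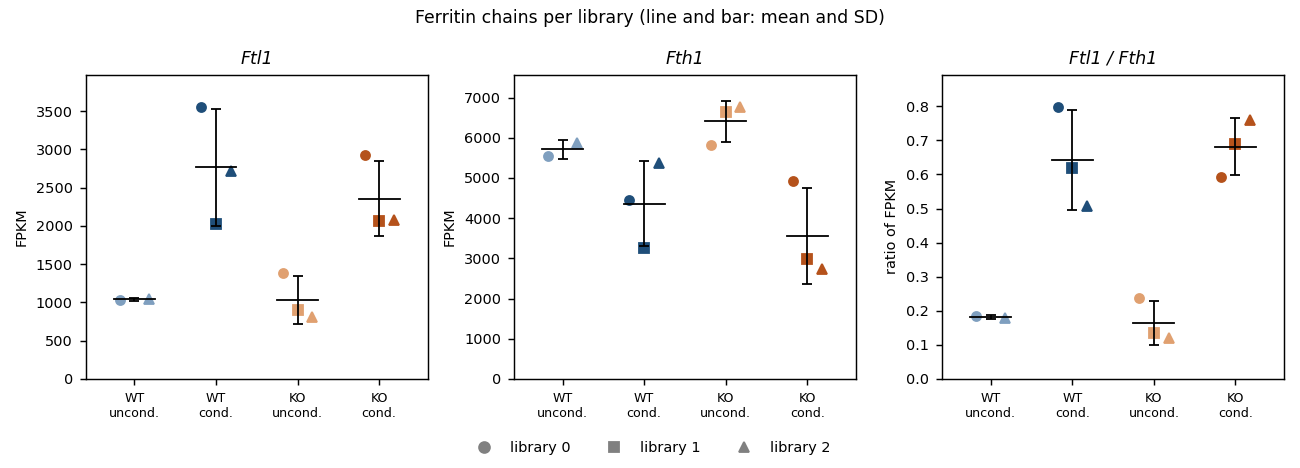
Levels of Ftl1 and Fth1 in FPKM and their ratio (y axes, starting at 0) by group (x axis), with points for libraries and lines and bars for the mean and SD. The ratio lay between 0.121 and 0.239 in unconditioned and between 0.507 and 0.798 in conditioned libraries.

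Of the 3 entry routes, Slc39a14 (chr14:70303467-70351452) was lower after conditioning on average, and Tfrc and Slc11a2 did not pass the test. Slc39a14 stood at 676 and 598 CPM in unconditioned and at 279, 318 and 290 CPM in conditioned WT cells. The KO libraries were at 567, 630 and 578 CPM without and at 339, 176 and 106 CPM with conditioning. No conditioned library reached an unconditioned one, and conditioned KO libraries 1 and 2 were the lowest of all. On average Slc39a14 fell by 1.31 (SE 0.24, adjusted p = 0.00574) on the log2 scale, and this held in each of the 11 fits without 1 library. In KO it fell by 1.51 (SE 0.33, adjusted p = 0.0179), and the value in WT was -1.11 (SE 0.36, adjusted p = 0.164). The KO call was lost in 3 of the 11 fits, without unconditioned KO library 1 (adjusted p = 0.0682) or 2 (adjusted p = 0.0589) or conditioned KO library 1 (adjusted p = 0.0853), and in a fit of the KO groups alone (adjusted p = 0.0879). Without conditioned KO library 0 the KO change was -2.06 (SE 0.20), and the WT value of -1.11 (SE 0.18, adjusted p = 0.0115) passed. In that fit 5.85% of all genes passed in WT and 42.8% in KO.

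The transferrin receptor Tfrc (chr16:32608896-32632794), whose message carries the 3′ hairpins above, stood at 121 and 136 CPM in unconditioned and 169, 106 and 138 CPM in conditioned WT cells. KO cells gave 140, 128 and 136 CPM without and 116, 93.8 and 96.3 CPM with conditioning. The WT groups overlapped and the KO groups did not, and neither change passed, at 0.10 in WT (SE 0.18, adjusted p = 0.884) and -0.40 in KO (SE 0.16, adjusted p = 0.110). Without conditioned KO library 0, the KO change was -0.50 (SE 0.17, adjusted p = 0.0380) and passed, as did 42.8% of all genes.

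The endosomal iron transporter Slc11a2 (chr15:100387898-100424209) lay between 61.8 and 87.5 CPM in all 11 libraries, and its medium effects were 0.20 in WT (SE 0.14, adjusted p = 0.591) and 0.11 in KO (SE 0.12, adjusted p = 0.556). The media overlapped in WT, and in KO the conditioned libraries, at 65.3 to 74.2 CPM, lay just above the unconditioned ones, at 61.8 to 64.9 CPM. The authors' estimate split its fragments between NM_001146161, whose reference transcript holds the 3′ hairpin, and the shorter NM_008732, in which no such match was found. The longer form took 61.4% and 64.2% of the fragments in unconditioned WT libraries and 58.4%, 66.1% and 55.0% in conditioned ones. In KO libraries it took 63.2%, 62.0% and 61.7% without and 57.8%, 74.7% and 73.7% with conditioning. Conditioned KO libraries 1 and 2 thus had the largest shares of the 11, while library 0 of that group lay among the rest. These shares come from a model of the fragments and carry no test.

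Of the export genes, Cp (chr3:19956933-20009750) stood at 24.9 and 29.0 CPM in unconditioned and 15.1, 12.9 and 17.4 CPM in conditioned WT cells. In KO cells it stood at 25.9, 36.4 and 46.9 CPM without and 13.6, 8.95 and 9.56 CPM with conditioning. The media did not overlap in either genotype. On average Cp fell by 1.30 (SE 0.18, adjusted p = 0.00151) on the log2 scale and in KO it fell by 1.76 (SE 0.24, adjusted p = 0.00504), and both calls held in each of the 11 fits without 1 library. The value in WT was -0.83 (SE 0.26, adjusted p = 0.151). Cp overlaps Hps3 at its end, and without strand their fragments cannot be told apart there. Hps3 had changes of 0.26 in WT (SE 0.31, adjusted p = 0.787) and 0.22 in KO (SE 0.27, adjusted p = 0.587).

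Ferroportin, Slc40a1 (chr1:45908070-45926532), stood at 8.18 and 7.75 CPM in unconditioned and 15.4, 12.6 and 13.3 CPM in conditioned WT cells. KO cells had 8.71, 13.6 and 13.8 CPM without and 12.2, 6.22 and 5.78 CPM with conditioning. All conditioned WT libraries lay above the unconditioned ones, whereas the KO groups overlapped, with conditioned library 0 inside the unconditioned range and conditioned libraries 1 and 2 below all unconditioned ones. The changes were 0.79 in WT (SE 0.33, adjusted p = 0.296) and -0.58 in KO (SE 0.29, adjusted p = 0.177), and their difference was -1.37 (SE 0.44, adjusted p = 0.822). None of these passed. Without conditioned KO library 0 the KO change was -1.0 (SE 0.21, adjusted p = 0.00494) and the difference between the genotypes was -1.79 (SE 0.30, adjusted p = 0.0187). In that fit 42.8% of all genes passed in KO and 9.43% for the difference. Slc40a1 had at most 246 fragments in a library.

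Among the zinc-responsive genes, the zinc exporter Slc30a1 (chr1:191906697-191913248) stood at 16.7 and 19.4 CPM in unconditioned and 25.3, 27.6 and 17.6 CPM in conditioned WT cells. KO libraries had 18.1, 16.0 and 17.1 CPM without and 19.9, 50.8 and 59.4 CPM with conditioning. The WT groups overlapped, and in the KO the gain lay mainly in libraries 1 and 2. Slc30a1 rose by 1.35 (SE 0.34, adjusted p = 0.0280) on the log2 scale in KO and by 0.86 (SE 0.26, adjusted p = 0.0413) on average, with 0.38 (SE 0.38, adjusted p = 0.744) in WT. The average call was kept in only 2 of the 11 fits without 1 library, and an additive block for library number gave an adjusted p of 0.0778. It was lost as well with no filter on low counts (adjusted p = 0.0506) and by limma on log2 FPKM. The KO call was kept in 7 of the 11 fits. It was lost without unconditioned KO library 1 (adjusted p = 0.107) or 2 (adjusted p = 0.0958) and without conditioned KO library 1 (adjusted p = 0.105) or 2 (adjusted p = 0.102), and in a fit of the KO groups alone (adjusted p = 0.0963). Without conditioned KO library 0 the KO change was 1.70 (SE 0.18). The gene overlaps 1700034H15Rik, which had at most 9 fragments in a library, against 233 to 1132 for Slc30a1.

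The metallothioneins did not pass in either genotype. Mt1 (chr8:94178883-94180327) stood at 342 and 321 CPM in unconditioned and 302, 241 and 271 CPM in conditioned WT cells, and at 454, 470 and 397 CPM without and 245, 462 and 547 CPM with conditioning in KO cells. Mt2 (chr8:94172618-94173567) stood at 454 and 391 CPM in unconditioned and 226, 247 and 177 CPM in conditioned WT cells, and at 532, 713 and 659 CPM without and 168, 525 and 589 CPM with conditioning in KO cells. Both were lower in every conditioned WT library than in the unconditioned ones, and in KO the groups overlapped. The changes of Mt2 were -0.96 in WT (SE 0.41, adjusted p = 0.306) and -0.57 in KO (SE 0.37, adjusted p = 0.293). Without conditioned KO library 0 the WT value of Mt2, then -0.97 (SE 0.17, adjusted p = 0.0142), passed. No WT library was changed in that fit, and 5.85% of all genes passed in WT, beside 1.6% with all 11 libraries. The value of Mt1 was -0.29 in WT (SE 0.27, adjusted p = 0.720), with -0.07 in KO (SE 0.24, adjusted p = 0.851). The genes are neighbours and resemble each other, so fragments could have been split between them.

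Between the genotypes, none of the 10 genes passed in either medium. In unconditioned medium 0.00658% of all genes passed, and the adjusted p values of the 10 genes all lay at 0.996, with 0 of the 10 below an unadjusted p of 0.05, against 378 of the 15197 genes tested. In conditioned medium 0.0% of all genes passed by edgeR and 1 gene by DESeq2. There 5 of the 10 genes had an unadjusted p under 0.05, as had 2061 of the 15197 genes tested. For the difference between the medium effects 0.0% of all genes passed, and 2 of the 10 genes had an unadjusted p under 0.05, as had 489 of the 15197 tested. DESeq2 called 0 genes there and limma, at the larger pseudocount, called 1.

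The conditioned library labelled KO and numbered 0 stood apart from the other 2 of its group, and the genotype comparison turned on it. With it left out, 6 of the 10 genes passed between genotypes in conditioned medium, where 31.0% of all genes did. Mt1 was then higher in KO by 0.90 (SE 0.13, adjusted p = 0.00189), Mt2 by 1.37 (SE 0.17, adjusted p = 0.00136) and Slc30a1 by 1.24 (SE 0.18, adjusted p = 0.00189). Lower in KO were Slc40a1, at -1.19 (SE 0.21, adjusted p = 0.00398), Slc39a14, at -1.06 (SE 0.19, adjusted p = 0.00429), and Tfrc, at -0.53 (SE 0.17, adjusted p = 0.0403). With it kept, the same differences were 0.62, 0.98, 0.88, -0.77, -0.51 and -0.43, of the same sign. The difference between medium effects then passed for Slc40a1 and for Slc30a1, at 1.32 (SE 0.26, adjusted p = 0.0227), where 9.43% of all genes passed. With both KO libraries numbered 0 left out, 8 of the 10 genes passed between genotypes in conditioned medium, beside 40.0% of all genes. Conditioned KO library 0 lay within the conditioned WT range for Mt1 (245 CPM against 241 to 302), Slc30a1 (19.9 against 17.6 to 27.6) and Tfrc (116 against 106 to 169). It lay just below that range for Mt2 (168 against 177 to 247) and Slc40a1 (12.2 against 12.6 to 15.4). For Slc39a14 it lay above (339 against 279 to 318). Over all genes, unconditioned KO library 0 also differed more from libraries 1 and 2 than these did from each other. Conditioned KO library 0 had 16556983 fragments, within the range of the others. Why these 2 libraries stood apart was not tested.

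**Figure D4:**
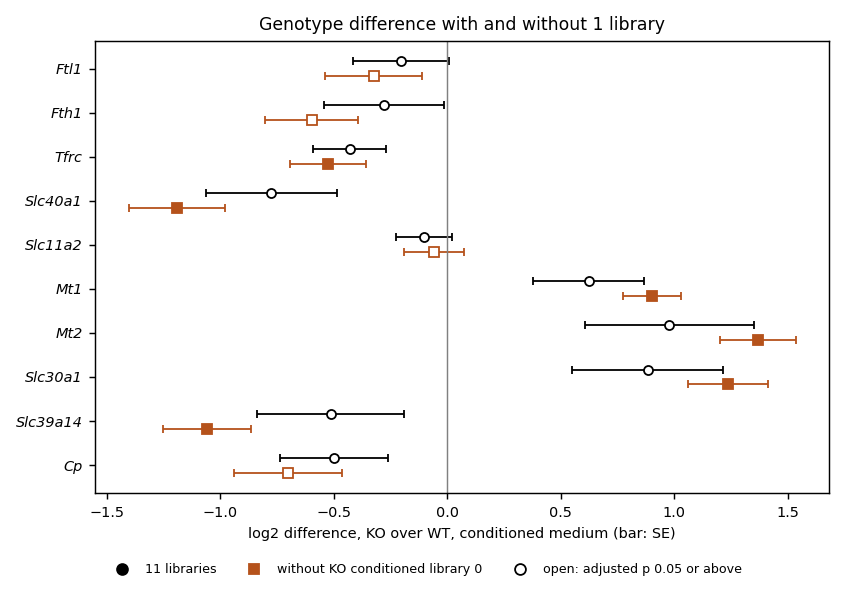
Log2 difference of KO over WT in conditioned medium (x axis) for each gene (y axis), from 11 libraries (circles) and without conditioned KO library 0 (squares), with bars for the SE; filled symbols passed an adjusted p of 0.05. No circle is filled, and the squares of Tfrc, Slc40a1, Mt1, Mt2, Slc30a1 and Slc39a14 are.

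The authors' own tests per start-site group gave more calls among the 10 genes. In the authors' deposited table, conditioned over unconditioned WT cells had log2 changes of 1.42 for Ftl1 (q = 0.0011), -0.98 for Mt2 (q = 0.0011), -1.20 for the main start-site group of Slc39a14 (q = 0.0011) and 0.73 for Slc40a1 (q = 0.0254). In KO cells the authors' deposited table gave log2 changes of 1.19 for Ftl1, 1.33 for Slc30a1 and -1.63 for the main start of Slc39a14 (each q = 0.0011), -1.81 for Cp (q = 0.00788) and -0.61 for Mt2 (q = 0.0414). Mt2 was thus marked there in both genotypes, where the tests above did not pass. The authors' deposited table also marked Mt1 (0.58, q = 0.0363), Mt2 (0.92, q = 0.0011), Slc30a1 (0.90, q = 0.0011) and Slc40a1 (-0.75, q = 0.0339) as different in KO over WT in conditioned medium. Fth1 got no test there, its main start being marked LOWDATA and its minor one NOTEST. The q of 0.0011 was the smallest among the 10 genes and was shared by changes as unlike as 0.90 and -1.63, so it does not rank them. Those tests had all deposited libraries, with the repeated one, so the calls are not on the same footing as those above. The share of all start-site groups marked by the authors was not counted here. Their calls are thus no result about the 10 genes as a set.

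Of the 10 genes, 4 had more than 1 transcript and 2, Fth1 and Slc39a14, had more than 1 start-site group. The minor start of Fth1 had at most 8.10 fragments in a library. The minor start of Slc39a14 took 2.46% and 2.37% of its fragments in unconditioned and 0.00178%, 10.6% and 5.08% in conditioned WT libraries. In KO libraries it took 2.92%, 9.12% and 13.1% without and 6.56%, 12.4% and 41.4% with conditioning. The largest share lay in conditioned KO library 2, in which the main start was lowest, at 1183 fragments against 5258 in library 0 of that group. The groups overlapped, and the authors' deposited table of start-site use gave q = 0.970 for the medium in KO and q = 0.935 in WT.

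The other genes of metal metabolism were read from 5 lists on iron uptake and its regulation, heme, iron-sulfur cluster assembly, zinc and copper. Of 91 listed genes 77 were tested, and on average over genotypes 10 rose and 8 fell, or 18 of 77, beside the 18.9% of all genes given above. In WT 3 of the 77 passed, beside 1.6% of all genes, and in KO 15 did, beside 16.7%. By list, the average effect passed for 4 upward and 5 downward of 23 iron uptake genes, 2 upward of 13 heme genes, 1 upward of 12 iron-sulfur genes, 2 upward and 1 downward of 15 zinc genes, and 1 upward and 2 downward of 14 copper genes. The medians of these lists lay between -0.13 and 0.17, beside 0.02 over all genes.

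Of the STEAP family, Steap3 rose and Steap1 and Steap4 fell. Steap3, the reductase of the transferrin cycle, went from 21.1 ± 0.393 CPM (SD, n = 2) to 60.9 ± 12.4 (n = 3) in WT and from 18.8 ± 1.90 (n = 3) to 39.1 ± 9.15 (n = 3) in KO. Steap3 rose by 1.53 in WT (SE 0.22, adjusted p = 0.0154) and rose by 1.06 in KO (SE 0.19, adjusted p = 0.0101). Steap4, also a metalloreductase, fell by 1.77 (SE 0.28, adjusted p = 0.0214) in WT and fell by 1.45 (SE 0.26, adjusted p = 0.0102) in KO. Steap1 fell by 0.65 (SE 0.14, adjusted p = 0.0489) in WT and fell by 0.80 (SE 0.12, adjusted p = 0.00706) in KO. Of the WT calls, those of Steap3 and Steap4 were kept in 8 of the 11 fits without 1 library and that of Steap1 in 3.

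Among genes of intracellular iron handling, the lysosomal cation channel Mcoln1 rose by 1.51 (SE 0.20, adjusted p = 0.00136) on average, and the mitochondrial iron importer Slc25a37 rose by 0.82 (SE 0.21, adjusted p = 0.0260), a call kept in 4 of the 11 fits without 1 library. Bmp6, a ligand that drives hepcidin in liver, rose by 0.99 (SE 0.19, adjusted p = 0.00736). Hmox1, the heme-degrading oxygenase that frees iron, rose by 1.54 (SE 0.35, adjusted p = 0.0139) on average, from 482 to 608 CPM in unconditioned to 1119 to 2709 CPM in conditioned WT cells. The siderophore-binding Lcn2 fell by 2.53 (SE 0.64, adjusted p = 0.0225). It differed widely among unconditioned KO libraries, from 5.89 to 69.6 CPM, and its call was kept in 5 of the 11 fits without 1 library, that of Hmox1 in 9.

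Copper and zinc genes also passed. The copper-dependent collagen crosslinking enzyme Lox fell by 1.77 (SE 0.32, adjusted p = 0.00477) on average and the secreted superoxide dismutase Sod3 fell by 1.55 (SE 0.29, adjusted p = 0.00605). The table's joint entry for Sco2, the cytochrome oxidase copper chaperone, and its neighbour Tymp rose by 1.45 (SE 0.27, adjusted p = 0.00586), and the Golgi zinc transporter Slc30a7 fell by 0.29 (SE 0.08, adjusted p = 0.0377), a call kept in 3 of the 11 fits without 1 library.

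**Figure D5:**
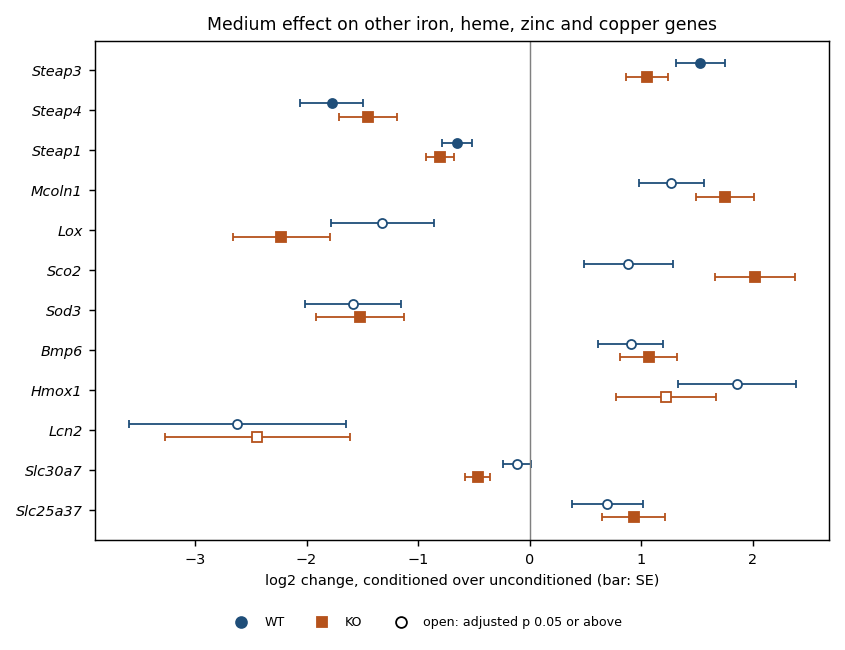
Log2 change in conditioned over unconditioned medium (x axis) of the 12 other metal genes with the smallest adjusted p (y axis) in WT (circles) and KO (squares), with bars for the SE; filled symbols passed an adjusted p of 0.05 in that genotype. Steap3 lay above 1 and Steap4 below -1 in both genotypes, and Hmox1 and Lcn2 passed only in the average of the genotypes.

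Lists of genes known to respond with some of the members were read beside them. Cp, Slc39a14 and the metallothioneins are induced in the acute-phase response, ferritin chains and Slc7a11 by NRF2, and metallothioneins by glucocorticoids. Over all genes tested, 9.54% rose and 9.36% fell on average. Of 11 acute-phase genes tested, 6 fell on average and 0 rose, with a median of -1.56, and Serpina3n fell by 3.81 (SE 0.45, adjusted p = 0.000965), Serpina3m fell by 6.09 (SE 0.69, adjusted p = 0.000839) and the receptor subunit Il6st fell by 1.54 (SE 0.24, adjusted p = 0.00252). Serpina3m was almost absent after conditioning, at 0.0624 to 0.833 CPM in WT and 0.0 to 0.603 CPM in KO. The size of its change is thus uncertain, at -7.40 to -5.78 in the fits without 1 library. Of 10 glucocorticoid targets 8 fell and 0 rose, with a median of -1.42, and Fkbp5 fell by 2.70 (SE 0.26, adjusted p = 0.000508), Angptl4 fell by 2.03 (SE 0.17, adjusted p = 0.000356) and Tsc22d3 fell by 1.38 (SE 0.15, adjusted p = 0.000695). Of 11 NRF2 targets 1 rose, Slc7a11, the cystine transporter, by 0.81 (SE 0.18, adjusted p = 0.0130), and Gsr, glutathione reductase, fell in KO by 1.03 (SE 0.28, adjusted p = 0.0360). The change of Slc7a11 was 1.31 in WT (adjusted p = 0.0471) and 0.30 in KO (adjusted p = 0.379). Its WT call and the KO call of Gsr were each kept in 3 of the 11 fits without 1 library. On average Gsr did not pass (-0.65, adjusted p = 0.0544). The median of the NRF2 list was 0.04 on average, with opposite signs in the genotypes, at 0.48 in WT and -0.19 in KO. Their part in the changes of the metal genes was not tested.

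By likeness of pattern over the 11 libraries, measured as the root mean square difference of log2 CPM centred on each gene's mean, Slc39a14 lay nearest to Casp12 (0.12), Adam12 (0.14) and Pdgfra (0.15). Cp lay nearest to Pole2 (0.10), Ahr (0.18) and Terf1 (0.19), and Ftl1 to Fbxl2 (0.17), Fam50a (0.18) and Adamtsl5 (0.18). The spread of the members about their own mean was 0.82 for Slc39a14, 0.73 for Cp and 0.68 for Ftl1 on the same scale.

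The labelled cell type was read from marker lists. Of 12 osteoblast lineage genes, the matrix genes Col1a1, Col1a2, Spp1 and Sparc were abundant, with at least 29518 fragments each in every library, and Runx2 had 1195 to 1411. Sp7 had 32 to 604 fragments and Alpl 178 to 1568, while Ibsp had 3 to 16, Phex 2 to 30, and Bglap and Dmp1 at most 13 and 5. Macrophage markers, of cells rich in ferritin, summed over 17 genes to 69.8 to 107 CPM in unconditioned and 119 to 154 CPM in conditioned WT cells. In KO cells they summed to 57.4 to 88.8 CPM without and 52.7 to 136 CPM with conditioning. The largest part was the table's joint entry for Lyz1 and Lyz2, at 470 to 1455 fragments, while Aif1 had at most 1 fragment and Ptprc at most 26, and of 15 markers tested 2 rose on average and 0 fell, beside the 9.54% of all genes that rose. Osteoclast markers summed to 148 to 156 CPM and 277 to 420 CPM in WT and to 166 to 200 CPM and 301 to 439 CPM in KO, without and with conditioning, of which Ctsk made up 93.8 to 108 CPM and Nfatc1 45.3 to 51.1 CPM in unconditioned WT cells, and Ctsk 220 to 359 CPM and Nfatc1 36.7 to 51.0 CPM in conditioned WT cells. Of 5 osteoclast markers tested, 2 rose on average and 0 fell, beside the 9.54% of all genes that rose. Ctsk was 1 of these 2 and rose by 1.40 (SE 0.19, adjusted p = 0.00151) on average, while Dcstamp was at 0 in all 11 libraries. The other osteoclast markers besides Nfatc1 had few fragments. Acp5 had 15 to 39, Oscar 3 to 9, Mmp9 1 to 73 and Atp6v0d2 11 to 91, and Calcr and Ocstamp had at most 3 and 5. Erythroid markers summed to at most 0.578 CPM. Endothelial markers summed to 6.91 to 8.02 CPM in unconditioned and 10.1 to 15.7 CPM in conditioned WT cells, and to 4.04 to 6.42 CPM and 8.69 to 15.7 CPM in KO cells, and 3 of the 4 tested rose on average. Their part in the changes of the metal genes was not tested. Skeletal muscle markers summed to 20.1 to 243 CPM and keratinocyte markers to 19.2 to 67.2 CPM over the 11 libraries, with 0 of 10 and 1 of 6 tested, the latter downward, passing on average. In these bulk samples, fewer cells of a type and less RNA per cell cannot be told apart, and the part of macrophage RNA in the ferritin values was not tested.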

How the data were processed

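The authors deposited tables made with TopHat2 2.0.9, Cufflinks 2.1.1 and Cuffdiff 2.1.1 after CASAVA 1.8.2, per the submitters' processing notes, which name the builds mm10 and GRCm38. Libraries were TruSeq RNA v2 on a HiSeq2000, per the labels' protocols. The deposited raw fragments per gene are expected counts, 94.3% of them whole numbers, and were rounded here. FPKM per gene and library were computed by the authors and are given as deposited. The authors' deposited table of start-site groups gives log2 fold changes with p-values and q-values. How fragments matching several places were shared is not given in the sources used here.

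Unconditioned WT libraries 0 and 1 entered once, as their mean. Here edgeR 4.0.16 (R 4.3.3) fitted 4 groups over 11 libraries with TMM scaling, the default filter by expression (15197 genes kept) and robust quasi-likelihood tests, with Benjamini-Hochberg adjustment over all genes tested and a threshold of 0.05. The biological coefficient of variation was 0.237. CPM use the TMM library sizes. Alternatives were DESeq2 1.42.0, its size factors, no filter, all 12 libraries, limma 3.58.1 on log2(FPKM + 1) and log2(FPKM + 0.1), only the groups compared, a block for library number, and leaving libraries out. The edgeR fit was tested on simulated data.

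All 10 genes are named. From the other metal lists, up to 12 genes called for the medium are named by smallest adjusted p, and from the acute-phase, glucocorticoid and NRF2 lists up to 3 each. The 2 most abundant genes of each cell marker list also fall under the rule, and these lists are given here mainly by their summed levels. Nearest patterns are given for the 3 genes with the largest mean absolute medium effects. The 10 genes and all lists were chosen with earlier results of these data known. The form of the hairpin search, the choice of promoters shown, the ferritin ratio and the marker genes singled out were settled after values were seen. Sequences come from RefSeq (GRCm38.p6) and GENCODE vM21 (GRCm38).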

Additional observations from a re-analysis of the deposited data

How the results depend on the processing

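Leaving out 1 library at a time, the number of the 10 genes called ranged from 0 to 3 for the medium in WT, 1 to 7 for the medium in KO, 0 to 6 between genotypes in conditioned medium and 0 to 2 for the interaction. All genes called ranged from 0 to 887, 343 to 6485, 0 to 4702 and 0 to 1429 in the same comparisons, from 1238 to 5935 for the averaged medium effect, and from 0 to 1 between genotypes in unconditioned medium. Without both KO libraries numbered 0, 5 of the 10 genes were called for the medium in WT, 2 between genotypes in unconditioned medium, 8 in conditioned medium and 4 for the interaction. All genes called were then 1616, 718, 6056 and 2705, with 7261 for the medium in KO and 6965 on average. For the medium in WT, DESeq2 called 2 of the 10 genes and 881 genes in all. There limma called 0 of the 10 at either pseudocount, with 204 genes in all at the larger and 175 at the smaller. The fit of only the groups compared called 3 and 386, and all 12 libraries called 1 and 942. For the medium in KO, the groups compared alone gave 2 of the 10 and 579 genes. DESeq2 and all 12 libraries each called 5 of the 10 in KO and 6 on average, adding Fth1 in both and Mt2 on average. All genes called were then 3615 in KO and 3741 on average by DESeq2, and 3497 and 4253 with all 12 libraries. The main fit called 2545 and 2873. At either pseudocount limma called 5 of the 10 in KO and 4 on average. It called 2081 and 2580 genes in all at the larger pseudocount, and 2105 and 2623 at the smaller. Between genotypes in unconditioned medium, limma at the smaller pseudocount and the groups compared alone called 0 genes, DESeq2 called 1 gene in conditioned medium, and limma at the larger pseudocount called 1 for the interaction. The causes of these shifts were not tested. No call among the 10 genes was reversed. Uncalled values changed sign for Ftl1 between genotypes in unconditioned medium (-0.22 to 0.0894 without 1 library) and its interaction (-0.33 to 0.0234), Tfrc for the medium in WT (-0.0744 to 0.25) and between genotypes in unconditioned medium (-0.0216 to 0.16), and Slc40a1 on average (-0.11 to 0.20, and -0.20 without both KO libraries numbered 0). They also did for Slc11a2 between genotypes in unconditioned (-0.0267 to 0.007) and conditioned medium (-0.21 to 0.0402) and its interaction (-0.20 to 0.0532), Mt1 for the medium in KO (-0.31 to 0.20, and 0.22 without both) and its interaction (-0.0184 to 0.49), and Slc30a1 between genotypes in unconditioned medium (-0.19 to 0.0352).

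With a block for library number, 1 of the 10 genes was called in WT, 4 in KO and 3 on average, Slc30a1 being lost there, and 278, 1852 and 2400 genes in all; between genotypes in unconditioned medium it called 0 genes and turned Ftl1 to 0.0466. The sample titles number the libraries of both media alike, but the numbers used here are not tied to the titles. Same-numbered libraries of the 2 media had correlated deviations of 0.35, 0.25 and 0.32 in KO and -0.13 and 0.43 in WT. The merged unconditioned WT library, numbered 0 in the block, also stands for number 1. Its deviations correlated at 0.46 with conditioned WT library 1. Pairs could not be assigned from the labels, so the medium tests outside this block were unpaired. Any pairing of the cultures was left out of them. Not every library correlated best with its own number: conditioned KO library 1 did so with unconditioned library 2, at 0.31.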
